A study of Mus musculus with 12 samples.

Results

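Limch1, Bcar3, Glo1, Dclk2, Clu, Chst3 and Cplx2 were 7 of the 24478 gene symbols listed for thymic tissue of mice, and they were followed across 12 RNA libraries. They were chosen because their levels parted thymic lymphomas carrying the MYC mutant S62A from those carrying the mutant T58A. That choice used the S62A and T58A lymphoma values themselves, so the difference between these lymphomas is given below as a description, with a fold and its standard error (SE) and with no test. For each symbol the transcript with the most reads over the 12 libraries was used. All 7 passed the filter on low counts, which kept 15606 genes.

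Poly(A) RNA was sequenced in 4 groups of 3 libraries. S62A lymphomas were thymic tissue labelled as T cells with ectopic MYCS62A as their only MYC. T58A lymphomas were thymic tissue labelled as T cells with ectopic MYCT58A as their only MYC. S62A splenomegaly libraries came from thymic tissue labelled as T and B cells, with ectopic MYCS62A beside endogenous MYC. Control libraries came from thymic tissue labelled as T cells, with endogenous MYC only. Lymphoma and splenomegaly were described as spontaneous. What drives the ectopic copy, which strain was used and how old the animals were is not given in the sources used here.

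MYC is a transcription factor whose protein is short-lived. Phosphorylation of serine 62 stabilises it, and later phosphorylation of threonine 58 by GSK3 marks it for ubiquitination by FBXW7 and for degradation. The mutants replace the serine or the threonine with alanine, which cannot be phosphorylated. The 7 genes belong to no single pathway. Glo1 encodes glyoxalase I, which clears methylglyoxal, a by-product of glycolysis, with the help of glutathione. Bcar3 encodes an adaptor that binds the CAS scaffold Bcar1, and Limch1 encodes a protein that activates non-muscle myosin II in human cells. Dclk2 encodes a doublecortin-like kinase that binds microtubules and is best known in neurons. Clu encodes clusterin, a secreted chaperone, Chst3 a sulfotransferase that modifies chondroitin chains, and Cplx2 a complexin that acts on SNARE complexes in exocytosis.

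Reads in genes came to between 9577373 and 22437969 per library. Levels are given as CPM, which scales counts to library size with TMM factors, and as the authors' FPKM, which also divides by transcript length. The within-group biological coefficient of variation was 44.9% in S62A lymphomas, 40.9% in T58A lymphomas, 28% in S62A splenomegaly and 17.1% in controls. Controls 1 and 2 were the closest pair within any group. Their counts differed by a chi-square per degree of freedom of 2.76. It was 46.6 for controls 1 and 3, and 43.4 for controls 2 and 3. The lowest value in the other groups was 19.8, between S62A splenomegaly 2 and 3. The 3 controls were thus not equally far apart, and the labels do not say whether controls 1 and 2 are separate animals. Myc reads averaged 173 ± 26.1 CPM in S62A lymphomas, 143 ± 13.4 CPM in T58A lymphomas, 91.9 ± 7.89 CPM in S62A splenomegaly and 82.8 ± 2.82 CPM in controls (SD, n = 3 each), and reads of the ectopic and the endogenous copy were not told apart. The summed level of 13 pan T cell markers was 3011 to 4882 CPM in S62A lymphomas, 3591 to 5159 CPM in T58A lymphomas, 1041 to 1163 CPM in S62A splenomegaly and 10510 to 10670 CPM in controls, and none of the 13 was at 0 in any group. The letter in the library titles followed the groups: it was I in all S62A libraries, H in all T58A libraries and in control 3, and G in controls 1 and 2. The labels do not say what the letter means, and it cannot be told apart from the difference between S62A and T58A lymphomas or between S62A splenomegaly and controls.

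Promoters of the genes are shown because MYC with its partner MAX binds the E-box CACGTG. Of the 7 genes, 6 were matched by symbol in RefSeq's promoter windows of build GRCm38.p6, each window running from 250 bases before to 50 bases after a start site. These 6 genes had 9 windows. The E-box was searched by its letters CACGTG, which read the same on both strands. It was found in 1 of the 9 windows, that of a Bcar3 start site, and in 7.15% of the 32851 windows of all genes. A match is a description of the letters and does not show binding, and a window without the letters says nothing of MYC. The Bcar3 window at chr3:122419507-122419806 (plus strand, GRCm38.p6) is set beside the Glo1 window at chr17:30612610-30612909 (minus strand, GRCm38.p6), the gene with the highest FPKM of the 7 in S62A lymphomas. Capitals mark the E-box, whose first base lies 170 bases before the Bcar3 start site.
Bcar3 promoter: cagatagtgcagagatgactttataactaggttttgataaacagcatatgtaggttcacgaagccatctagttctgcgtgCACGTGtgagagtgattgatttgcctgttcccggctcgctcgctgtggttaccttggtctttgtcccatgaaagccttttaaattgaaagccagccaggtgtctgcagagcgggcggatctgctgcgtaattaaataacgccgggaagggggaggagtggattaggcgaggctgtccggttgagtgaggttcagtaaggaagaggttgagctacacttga
Glo1 promoter: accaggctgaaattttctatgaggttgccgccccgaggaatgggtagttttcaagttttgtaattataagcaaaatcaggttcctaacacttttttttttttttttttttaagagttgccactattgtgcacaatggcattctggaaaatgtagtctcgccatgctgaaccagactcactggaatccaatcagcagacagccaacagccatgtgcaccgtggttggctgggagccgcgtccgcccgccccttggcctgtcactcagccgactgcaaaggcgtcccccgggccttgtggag
The window of Glo1 had no E-box.

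In S62A lymphomas Limch1, Bcar3, Glo1 and Dclk2 stood above T58A lymphomas, by 3.13-fold for Glo1 to 9.74-fold for Limch1, and Clu, Chst3 and Cplx2 stood below them, by 3.27-fold for Cplx2 to 14.7-fold for Chst3. The tissue was sequenced in bulk, so fewer cells of a type and less RNA per cell cannot be told apart. The 3 S62A and the 3 T58A lymphoma libraries did not overlap in any of the 7 genes. Of all 15606 genes tested, 21.1% had no overlap between these groups and 3.15% passed edgeR's quasi-likelihood test at a Benjamini-Hochberg adjusted p of 0.05 (0.859% higher and 2.29% lower in S62A). Since the 7 genes were picked on this difference, nothing is read from their count. With the 6 lymphoma libraries fitted alone, edgeR called 0 genes (2045 at an unadjusted p under 0.05), while DESeq2 called 1755 with all 12 libraries, so the calls of other genes between the lymphomas given below rest on the spread shared with the other groups. Set against controls, S62A lymphomas did not overlap them in 6 of the 7 genes (60.3% of all genes) and T58A lymphomas in 4 of the 7 (60% of all genes).

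**Figure D1:**
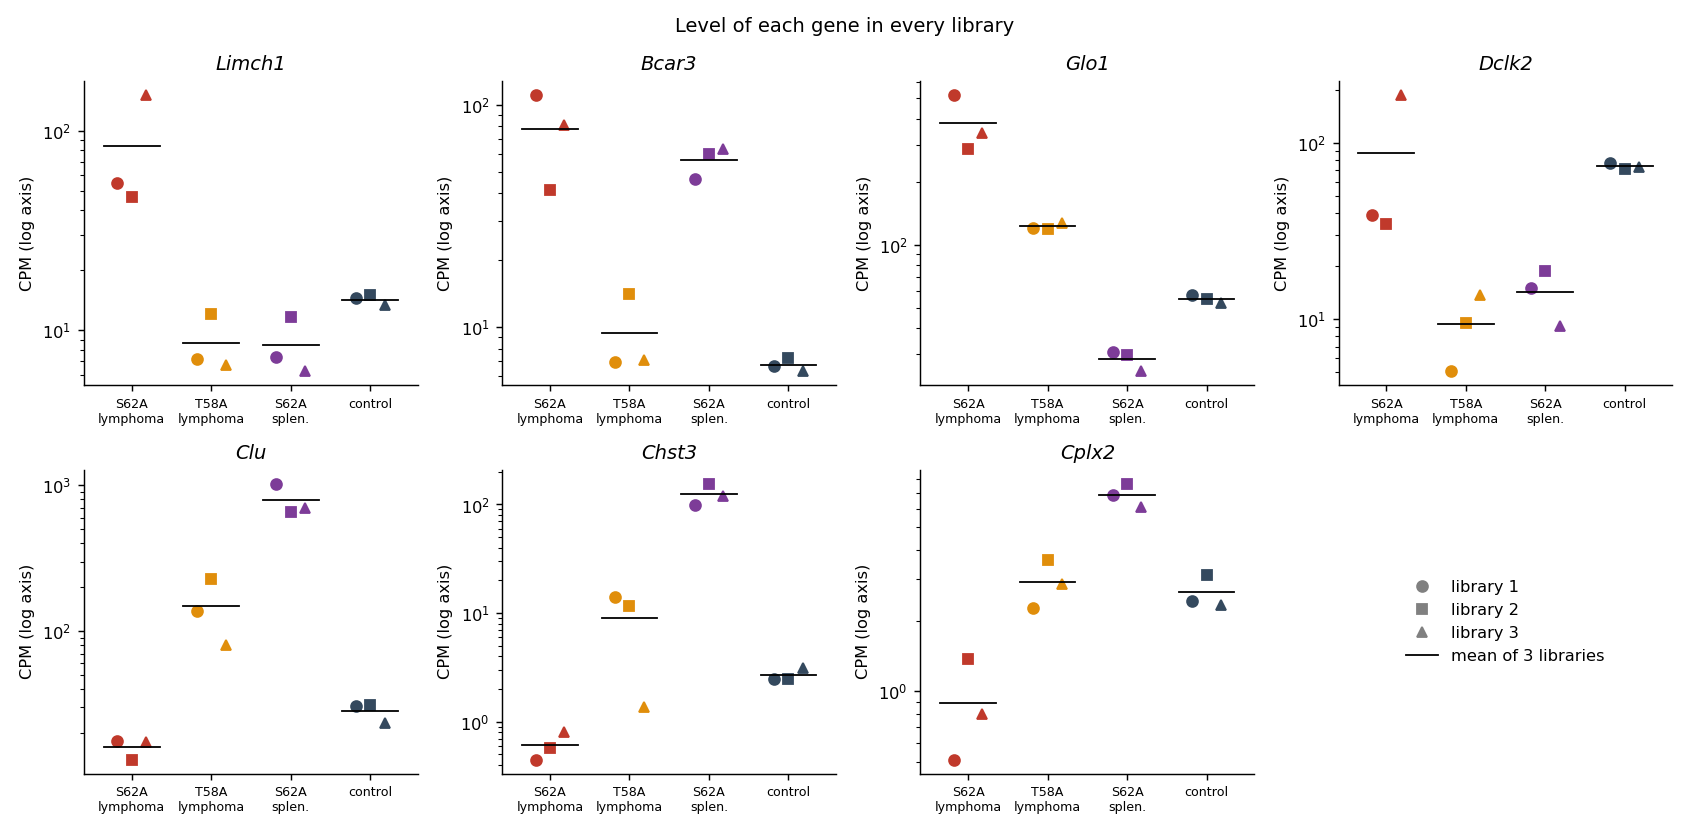
Level of each of the 7 genes in CPM on a log axis, in the 3 libraries (circle, square and triangle) of S62A lymphoma, T58A lymphoma, S62A splenomegaly (splen.) and control, with the mean as a line. The axes differ between genes. Limch1, Bcar3, Glo1 and Dclk2 were higher in every S62A lymphoma than in any T58A lymphoma, and Clu, Chst3 and Cplx2 were lower.

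Glo1 (NM_025374, chromosome 17, 30729807 to 30749604, minus strand, mm9) had the highest FPKM of the 4 higher genes in S62A lymphomas. It had 520, 286 and 341 CPM in S62A lymphomas, 120, 119 and 127 CPM in T58A lymphomas, 30.8, 29.8 and 24.9 CPM in S62A splenomegaly and 57.7, 54.8 and 52.5 CPM in controls. No 2 groups overlapped, and the order ran S62A lymphoma, T58A lymphoma, control, S62A splenomegaly. The log2 fold change was 1.64 ± 0.19 (SE) between S62A and T58A lymphomas. Against controls it was 2.80 ± 0.20 in S62A lymphomas and 1.15 ± 0.19 in T58A lymphomas. On the per-length scale Glo1 averaged 218 ± 67.8 FPKM in S62A lymphomas, 73.3 ± 3.46 FPKM in T58A lymphomas, 16.2 ± 1.88 FPKM in S62A splenomegaly and 33.6 ± 1.83 FPKM in controls (SD, n = 3 each). A second transcript of Glo1, NM_001113560, shares its start and end and held 35.3 to 36.8% as many reads in S62A lymphomas, 34.6 to 41.7% in T58A lymphomas, 32.1 to 37.5% in S62A splenomegaly and 41.1 to 42.0% in controls. These shares overlapped between S62A and T58A lymphomas, whose levels of Glo1 did not.

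In mice Glo1 lies in a segment that is duplicated in some inbred strains, together with parts of its neighbours, and the strain is not given here. Dnah8 encodes a dynein heavy chain and lies in that segment. It had 220, 64.4 and 118 CPM in S62A lymphomas against 41.6, 64.0 and 51.4 CPM in T58A lymphomas. The log2 fold change of 1.36 ± 0.35 did not pass edgeR's quasi-likelihood test (adjusted p = 0.0617). Btbd9, the next gene before Glo1, had 71.6, 62.6 and 70.2 CPM in S62A lymphomas against 46.3, 56.8 and 56.1 CPM in T58A lymphomas, with a log2 fold change of 0.36 ± 0.12 (edgeR adjusted p = 0.115). Both genes were higher in every S62A lymphoma than in any T58A lymphoma, and Dnah8 in S62A lymphoma 2 by a margin within 1 CPM. In controls Dnah8 had 83.4, 80.1 and 76.1 CPM, above every T58A lymphoma and above S62A lymphoma 2. Btbd9 had 45.4, 41.9 and 43.4 CPM in controls, below every lymphoma. Glo1 was above controls in every lymphoma. DESeq2's Wald test called Dnah8 and Btbd9 higher in S62A than in T58A lymphomas. Glp1r had 0 reads in every library. A part of gene copies in the Glo1 difference was not tested.

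Bcar3 (NM_013867, chromosome 3, 122122698 to 122233100, plus strand, mm9) had 111, 41.6 and 81.0 CPM in S62A lymphomas, 6.99, 14.0 and 7.08 CPM in T58A lymphomas, 46.4, 60.0 and 63.0 CPM in S62A splenomegaly and 6.66, 7.22 and 6.32 CPM in controls. Both groups with the S62A mutant were high and overlapped each other, while T58A lymphomas overlapped controls. Its log2 fold change was 3.05 ± 0.37 between S62A and T58A lymphomas, 3.53 ± 0.38 between S62A lymphomas and controls and 0.48 ± 0.35 between T58A lymphomas and controls. High Bcar3 was thus found in all 6 libraries that carry the S62A mutant, which are also the 6 with the title letter I.

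Limch1 (NM_001001980, chromosome 5, 67137079 to 67448398, plus strand, mm9) had 55.1, 46.8 and 152 CPM in S62A lymphomas, 7.16, 12.1 and 6.73 CPM in T58A lymphomas, 7.38, 11.7 and 6.24 CPM in S62A splenomegaly and 14.5, 15.0 and 13.3 CPM in controls. S62A lymphomas were the only group above controls, and T58A lymphomas and S62A splenomegaly overlapped each other below them. Its log2 fold change was 3.28 ± 0.46 between S62A and T58A lymphomas, 2.57 ± 0.44 between S62A lymphomas and controls and -0.72 ± 0.43 between T58A lymphomas and controls. S62A lymphoma 3 was the highest, and without it the fold between S62A and T58A lymphomas was 5.86 in place of 9.74.

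Dclk2 (NM_001195498, chromosome 3, 86590072 to 86724806, minus strand, mm9) had 39.1, 34.9 and 187 CPM in S62A lymphomas, 5.08, 9.48 and 13.8 CPM in T58A lymphomas, 15.1, 18.7 and 9.19 CPM in S62A splenomegaly and 76.7, 71.1 and 73.4 CPM in controls. Here controls were high as well: 2 of the 3 S62A lymphomas lay below every control and S62A lymphoma 3 lay above them. The log2 fold change was 3.20 ± 0.63 between S62A and T58A lymphomas, 0.24 ± 0.57 between S62A lymphomas and controls and -2.96 ± 0.62 between T58A lymphomas and controls. Without S62A lymphoma 3 the fold between S62A and T58A lymphomas was 3.91 in place of 9.21. T58A lymphomas lay below every control in this gene, while S62A lymphomas spanned them. A shorter transcript, NM_001195500, held 29.8, 7.20 and 16.5% as many reads as the row used in S62A lymphomas, 28.4, 11.8 and 20.4% in T58A lymphomas, 28.8, 24.7 and 27.5% in S62A splenomegaly and 11.3, 11.2 and 12.9% in controls. The lowest share, in S62A lymphoma 2, had a Wilson 95% interval of 5.22 to 9.85%, and the highest, in S62A lymphoma 1, one of 26.3 to 33.5%. These libraries of 1 group differed by more than counting error.

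Clu (NM_013492, chromosome 14, 66587320 to 66600385, plus strand, mm9) had the highest FPKM of the 3 lower genes in every group. It had 17.7, 13.1 and 17.4 CPM in S62A lymphomas, 137, 226 and 80.0 CPM in T58A lymphomas, 1029, 657 and 698 CPM in S62A splenomegaly and 30.9, 31.2 and 23.3 CPM in controls. No 2 groups overlapped, and the 2 lymphoma groups lay on opposite sides of controls. In log2 units the fold change of Clu was -3.20 ± 0.35 between S62A and T58A lymphomas, -0.82 ± 0.33 between S62A lymphomas and controls and 2.38 ± 0.33 between T58A lymphomas and controls. On the per-length scale Clu averaged 10.6 ± 1.63 FPKM in S62A lymphomas, 102 ± 51.2 FPKM in T58A lymphomas, 521 ± 125 FPKM in S62A splenomegaly and 20.1 ± 3.33 FPKM in controls (SD, n = 3 each). Among the 7 genes it was thus the highest in FPKM in S62A splenomegaly, while Glo1 was the highest in S62A lymphomas.

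Chst3 (NM_016803, chromosome 10, 59644276 to 59682008, minus strand, mm9) had 0.445, 0.575 and 0.800 CPM in S62A lymphomas, 14.1, 11.5 and 1.38 CPM in T58A lymphomas, 99.5, 156 and 121 CPM in S62A splenomegaly and 2.48, 2.48 and 3.12 CPM in controls. The S62A lymphoma levels rested on 7, 8 and 12 reads. T58A lymphomas spanned controls, with lymphomas 1 and 2 above them and lymphoma 3 below. In log2 units the fold change of Chst3 was -3.88 ± 0.70 between S62A and T58A lymphomas, -2.14 ± 0.71 between S62A lymphomas and controls and 1.74 ± 0.58 between T58A lymphomas and controls.

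Cplx2 (NM_009946, chromosome 13, 54472713 to 54485278, plus strand, mm9) had 0.509, 1.37 and 0.800 CPM in S62A lymphomas, 2.25, 3.62 and 2.88 CPM in T58A lymphomas, 6.84, 7.68 and 6.10 CPM in S62A splenomegaly and 2.43, 3.14 and 2.34 CPM in controls. The S62A lymphoma levels rested on 8, 19 and 12 reads. T58A lymphomas overlapped controls, and S62A lymphomas lay below both. The log2 fold change was -1.71 ± 0.41 between S62A and T58A lymphomas, -1.56 ± 0.41 between S62A lymphomas and controls and 0.15 ± 0.39 between T58A lymphomas and controls. Clu, Chst3 and Cplx2 shared 1 order of means: S62A splenomegaly, T58A lymphoma, control, S62A lymphoma.

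**Figure D2:**
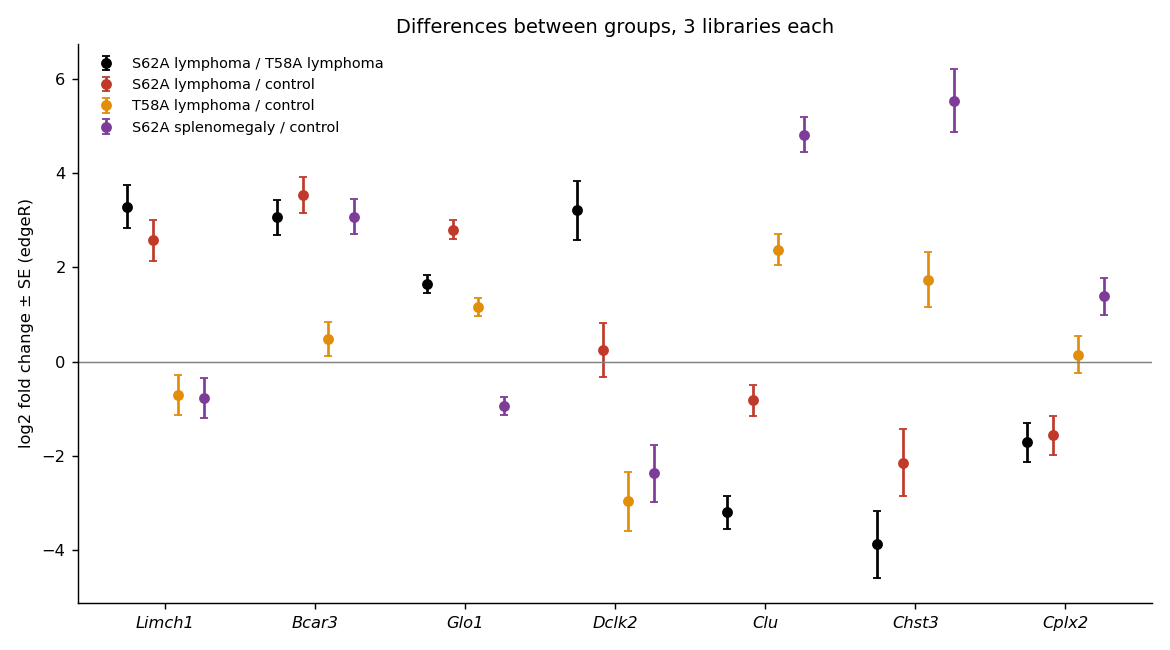
Log2 fold change (y axis, bars are the SE from edgeR) of each gene between S62A and T58A lymphomas (black), and against controls in S62A lymphomas (red), T58A lymphomas (orange) and S62A splenomegaly (purple), 3 libraries a group. The last 3 share the control libraries. Bcar3 was above 3 in both S62A groups, while Clu and Chst3 were below 0 in S62A lymphomas and at 4.80 and 5.53 in S62A splenomegaly.

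S62A splenomegaly was compared with controls in a test that used no lymphoma library in the difference, though the lymphomas shared the estimate of the spread. Chst3, Clu, Bcar3 and Cplx2 rose and Dclk2 and Glo1 fell in S62A splenomegaly, by edgeR's quasi-likelihood test with adjustment over all genes. Of all genes tested 49.2% passed in this comparison, 22.9% higher and 26.3% lower, so that a call was common. Chst3 rose 46.3-fold (log2 fold change 5.53 ± 0.66, adjusted p = 6.93e-05) and Clu rose 27.9-fold (4.80 ± 0.37, adjusted p = 4.49e-06). Bcar3 rose 8.38-fold (3.07 ± 0.37, adjusted p = 7.46e-05) and Cplx2 rose 2.60-fold (1.38 ± 0.39, adjusted p = 0.0132). By size of rise Chst3 ranked 99th, Clu 166th and Bcar3 673rd of the 15606 genes. Dclk2 fell 5.16-fold (-2.37 ± 0.61, adjusted p = 0.00770) and Glo1 fell 1.93-fold (-0.95 ± 0.19, adjusted p = 0.00190). Limch1 had 1.70-fold lower levels that did not pass (-0.77 ± 0.43, adjusted p = 0.160), and it passed when only the 6 splenomegaly and control libraries were fitted (adjusted p = 0.0364, with a range of 0.0364 to 0.486 over its alternatives). In all 7 genes the 3 S62A splenomegaly libraries and the 3 controls did not overlap, as in 70.5% of all genes. The call of Cplx2 was lost without control 1 (adjusted p = 0.0549) and without control 3 (adjusted p = 0.0519). With control 3 as the only control, the calls of Cplx2 (adjusted p = 0.155), Glo1 (0.0564) and Dclk2 (0.0709) were lost. Over all alternatives the adjusted p ran from 0.000286 to 0.155 for Cplx2, from 7.9e-05 to 0.0564 for Glo1 and from 0.000131 to 0.0709 for Dclk2.

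The mean of the 2 lymphoma groups was compared with controls, a difference that the choice of genes did not use directly but that shares the lymphoma libraries with it. In this mean Bcar3, Glo1 and Clu were called higher and Dclk2 lower by edgeR's quasi-likelihood test, where 46.1% of all genes passed. These calls use the lymphoma libraries on which the genes were chosen, so they are no support separate from that choice. Glo1 was 3.93-fold higher (log2 fold change 1.97 ± 0.18, adjusted p = 1.17e-05), and all 6 lymphoma libraries lay above all controls. Bcar3 was 4.01-fold higher (SE of the log2 fold change 0.33, adjusted p = 0.000626). Its log2 fold change against controls was 3.53 ± 0.38 in S62A lymphomas but 0.48 ± 0.35 in T58A lymphomas, which overlapped controls. The alternatives all share lymphoma libraries with the choice of genes and are no separate support. Both calls held under all 18 of them. The calls of Dclk2 (-1.36 ± 0.48, adjusted p = 0.0371) and Clu (0.78 ± 0.29, adjusted p = 0.0446) did not: Dclk2 passed in 9 and Clu in 5 of 18 alternatives, with adjusted p up to 0.258 and 0.182. For Clu the mean joins lymphomas on opposite sides of controls. Limch1 (0.93 ± 0.38, adjusted p = 0.0650), Cplx2 (-0.71 ± 0.33, adjusted p = 0.105) and Chst3 (-0.20 ± 0.54, adjusted p = 0.778) did not pass.

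Markers of other cell types moved beside the 7 genes. The summed level of 11 B cell markers was 32.9, 55.0 and 37.2 CPM in S62A lymphomas, 302, 439 and 40.8 CPM in T58A lymphomas, 2205, 3005 and 2514 CPM in S62A splenomegaly and 89.6, 84.5 and 90.2 CPM in controls. T58A lymphoma 3, the T58A library with the lowest Chst3, was also the one with the lowest B cell sum. Between S62A and T58A lymphomas 5 of the 11 markers passed the test, all lower in S62A, and the median log2 fold change of the 11 was -3.25, against -0.01 over all genes. In S62A splenomegaly all 11 rose against controls, with a median of 4.73. None of the 11 was at 0 in a whole group.

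A list of 7 follicular dendritic cell markers was added after the values had been seen, because Clu is abundant in those cells. Their summed level was 207, 192 and 111 CPM in S62A lymphomas, 561, 615 and 256 CPM in T58A lymphomas, 2018, 1486 and 1045 CPM in S62A splenomegaly and 131, 130 and 125 CPM in controls. The sum had the same order of T58A lymphomas as Clu, with lymphoma 2 highest and lymphoma 3 lowest. S62A lymphomas 1 and 2 went the other way, since their sums lay above controls and their Clu below. Cr2 and Fcer2a of this list are B cell genes too. In S62A splenomegaly Cxcl13 (360 to 982 CPM) and Mfge8 (475 to 694 CPM) were the highest of the list and weighed most in the sum. Against controls 5 of the 7 markers rose there and 1 fell by edgeR's test. Sox9 was at 0 to 1.91 CPM in S62A splenomegaly, against 6.71 to 7.80 CPM in controls. Summed granulocyte markers also differed, at 1.78 to 7.80 CPM in S62A lymphomas, 70.8 to 213 CPM in T58A lymphomas, 7.15 to 78.8 CPM in S62A splenomegaly and 138 to 222 CPM in controls. Of these 10 markers 8 passed lower in S62A than in T58A lymphomas, and Ly6g, Elane and Retnlg were at 0 in S62A lymphomas. The part of any of these cells in the levels of Clu, Chst3 and Cplx2 was not tested.

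Other marker lists moved in S62A splenomegaly with the rises of Clu, Chst3, Bcar3 and Cplx2, with the falls of Glo1 and Dclk2, and with the chaperone and core protein lists described below. By edgeR's test against controls 49.2% of all genes were called. Of the markers, 11 of 11 of macrophages and monocytes rose (median log2 fold change 3.21), 10 of 10 of endothelium (2.19) and 6 of 8 of dendritic cells (1.87). In contrast 11 of 12 thymic epithelium markers fell (-8.41) and 12 of 13 pan T cell markers fell (-2.81). Summed macrophage and monocyte markers were at 5177 to 9648 CPM in S62A splenomegaly, against 713 to 829 CPM in controls. Summed endothelium markers were at 514 to 871 CPM in S62A splenomegaly against 190 to 227 CPM in controls, and summed dendritic cell markers at 164 to 375 CPM against 41.0 to 48.9 CPM in controls. Thymic epithelium markers summed to 284 to 434 CPM in S62A splenomegaly, against 4600 to 5110 CPM in controls. No marker of these 5 lists was at 0 in a whole group. In the mean of both lymphoma groups against controls 46.1% of all genes were called. There 10 of 11 macrophage and monocyte markers rose (1.57) and 2 of 10 endothelium markers rose (0.325). Thymic epithelium markers fell there too, 11 of 12 (-5.41), as did 10 of 13 pan T cell markers (-1.83). Lower as well were 9 of 10 granulocyte markers (-3.23) and 3 of 8 dendritic cell markers (-0.389). The part of these cells in the levels of the 7 genes was not tested.

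**Figure D3:**
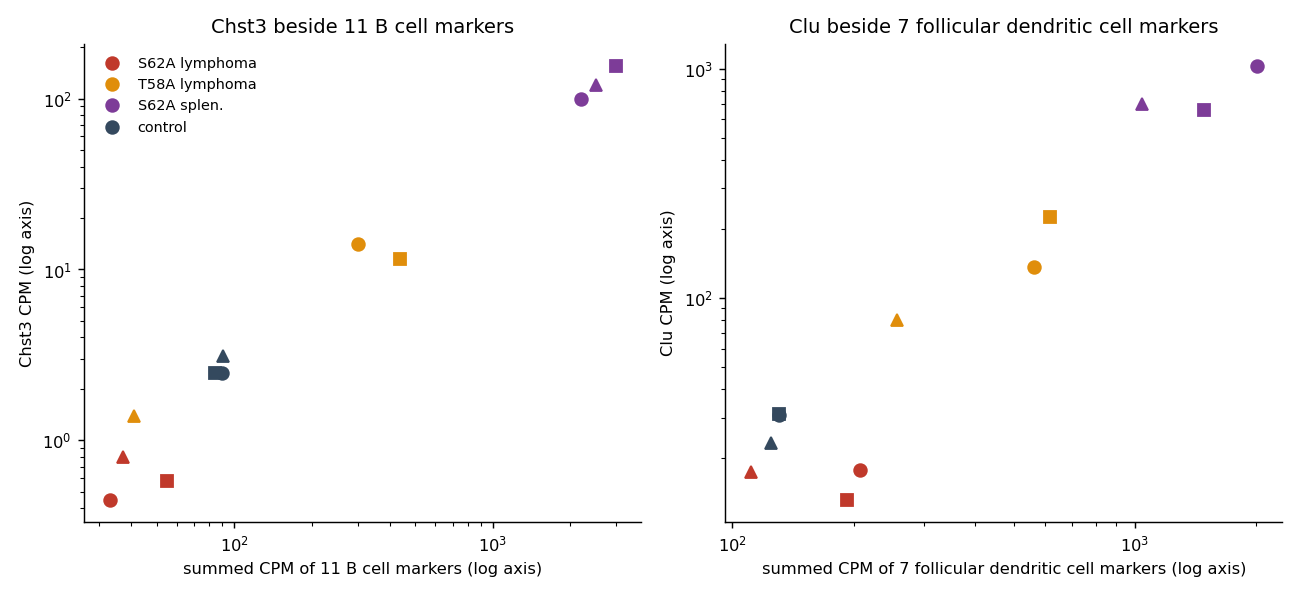
Chst3 beside the summed level of 11 B cell markers, and Clu beside that of 7 follicular dendritic cell markers, in CPM on log axes, 1 point a library (circle, square and triangle for libraries 1, 2 and 3). In both panels S62A splenomegaly lies at the upper right and T58A lymphoma 3 lies below the other T58A lymphomas.

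Genes that work with the 7 were taken from 9 lists, which held 185 other symbols, of which 161 were tested. Between S62A and T58A lymphomas none of the 161 was higher and 6 were lower by edgeR's quasi-likelihood test, 3.73% against 3.15% of all genes. Since only 0.859% of all genes were called higher and 2.29% lower, these counts lie near the background and nothing is read from them about the lists. At an unadjusted p under 0.05 the lists held 15 higher and 27 lower genes, and DESeq2's Wald test called 6 higher and 15 lower. No gene passed in the lists of glyoxalase and aldehyde detoxification (18 tested, median log2 fold change 0.02), CAS adaptor and integrin signalling (22 tested, -0.18), clusterin's receptors with other extracellular chaperones and terminal complement (18 tested, -0.16) and chondroitin sulfate synthesis (25 tested, -0.06). In these 4 lists 0, 2, 0 and 5 genes were higher and 2, 3, 4 and 1 lower at an unadjusted p under 0.05, and DESeq2 called 0, 0, 0 and 3 higher and 1, 2, 2 and 1 lower.

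The 6 lower genes lay in the other lists. The first list held 24 genes of non-muscle myosin and calponin homology. Of these Myh14, a non-muscle myosin heavy chain, had 0.225 ± 0.103 CPM in S62A lymphomas, against 2.50 ± 0.887 CPM in T58A lymphomas (SD, n = 3 each, edgeR adjusted p = 0.0229). Controls had 1.74 ± 0.326 CPM. Mylk, the kinase of myosin light chains, had 6.63 ± 2.50 CPM in S62A lymphomas, against 29.1 ± 17.2 CPM in T58A lymphomas (SD, n = 3 each, edgeR adjusted p = 0.0239). Controls, at 7.61 ± 1.14 CPM, were near S62A lymphomas. The other 22 genes of this list did not pass. Limch1 was higher in S62A lymphomas, and a relation of it to Myh14 and Mylk was not tested. Another list held 17 genes of the doublecortin family and microtubule binding. Of these Mapre2, which binds growing microtubule ends, had 25.3 ± 4.82 CPM in S62A lymphomas, against 50.6 ± 13.1 CPM in T58A lymphomas (SD, n = 3 each, edgeR adjusted p = 0.0278). Controls, at 26.2 ± 2.30 CPM, were near S62A lymphomas. Dclk1, the closest relative of Dclk2, had a log2 fold change of -1.18 ± 0.52 that did not pass (adjusted p = 0.199). Among 12 core proteins that carry chondroitin sulfate, Srgn, the proteoglycan of secretory granules, was lower in S62A than in T58A lymphomas (-1.12 ± 0.25, adjusted p = 0.0370 by edgeR). So was Bgn of the extracellular matrix (-1.24 ± 0.29, adjusted p = 0.0465 by edgeR). Srgn averaged 68.2 CPM in S62A lymphomas, 148 CPM in T58A lymphomas and 155 CPM in controls. Bgn was above controls in both, at 159 CPM in S62A lymphomas, 374 CPM in T58A lymphomas and 38.1 CPM in controls. Among 23 genes of SNARE exocytosis Syt1, a calcium sensor, passed lower, with 2 reads in all S62A lymphomas and 325 reads in all T58A lymphomas, most of them in T58A lymphoma 2.

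In S62A splenomegaly against controls 49 of the 161 listed genes rose and 28 fell. The 18 genes of extracellular chaperones, clusterin receptors and terminal complement held 10 that rose and none that fell, at an unadjusted p under 0.05 11 and 1, and by DESeq2 10 and 0, with a median log2 fold change of 1.32 against -0.08 over all genes. The receptor Lrp1 (1.01 ± 0.30, edgeR adjusted p = 0.0163) and the protease inhibitor A2m (5.02 ± 0.89, edgeR adjusted p = 0.000864) were among those that rose with Clu. Of 12 core proteins 7 rose and 2 fell, with a median of 2.23, and Srgn (2.05 ± 0.25, edgeR adjusted p = 8.26e-05), Bgn (3.83 ± 0.32, 7.1e-06) and Cd44 (3.65 ± 0.49, 0.000146) were among those that rose. Of 25 genes of chondroitin and dermatan sulfate synthesis 8 rose and 3 fell, with a median of 0.32. The sulfotransferases Chst7 (1.80 ± 0.44, edgeR adjusted p = 0.00623), Chst12 (1.49 ± 0.23, 0.000357) and Chst15 (1.24 ± 0.45, 0.0388) rose with Chst3, each by less than it. In the SNARE list 9 of 23 rose and 5 fell, with a median of 0.33. Against a share of 49.2% of all genes called, 9 of 12 core proteins and 10 of 18 genes of the chaperone list were called.

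The remaining lists moved both ways in S62A splenomegaly. Of all genes 49.2% were called there, 22.9% higher and 26.3% lower, so nothing is read from the counts of these lists. Of 18 glyoxalase and aldehyde genes 4 rose and 3 fell, and Hagh, glyoxalase II, which acts after Glo1, fell (-0.75 ± 0.26, edgeR adjusted p = 0.0316). Of 22 CAS adaptor genes 3 rose and 4 fell: Ptk2, the focal adhesion kinase, rose (1.09 ± 0.42, edgeR adjusted p = 0.0497) and Efs, a CAS family member, fell (-2.50 ± 0.47, 0.00132). Of 17 doublecortin and microtubule genes 6 rose and 6 fell, and Dclk1 rose (3.05 ± 0.55, edgeR adjusted p = 0.000931) where Dclk2 fell. Of 24 myosin genes 2 rose and 4 fell. In the Glo1 segment Dnah8 fell (-3.34 ± 0.39, edgeR adjusted p = 5.82e-05), as Glo1 did, and Btbd9 did not pass.

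In the mean of both lymphoma groups against controls 46.1% of all genes were called, 22.5% higher and 23.6% lower, and of the 161 listed genes 37 rose and 33 fell. Here 3 of 18 glyoxalase and aldehyde genes rose and 4 fell, with a median log2 fold change of 0.16 against -0.0033 over all genes. Hagh fell (-0.98 ± 0.21, edgeR adjusted p = 0.00345) where Glo1 rose, and Akr1b8, an aldo-keto reductase, rose (3.37 ± 0.57, 0.000765). Of 22 CAS adaptor genes 3 rose and 10 fell, with a median of -0.44: Ptk2 rose (2.32 ± 0.40, edgeR adjusted p = 0.000832) as Bcar3 did, and Efs fell (-2.73 ± 0.37, 0.000188). Of 18 chaperone, clusterin receptor and complement genes 7 rose and 2 fell, and of 12 core proteins 4 rose and 2 fell. The lists of myosin (4 rose, 3 fell of 24), chondroitin synthesis (5 and 5 of 25) and SNARE exocytosis (6 and 7 of 23) moved both ways. In the doublecortin list 4 of 17 rose, a share near that of all genes, and none fell (at an unadjusted p under 0.05 6 and 1, by DESeq2 5 and 0), and Stmn1, a microtubule destabiliser, was one of the 4 (0.96 ± 0.16, edgeR adjusted p = 0.000608).

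For each gene the 3 genes with the most similar profile were found among 14610 candidates, as the smallest root-mean-square difference of centred log2 CPM over the 12 libraries. This is a description of 12 libraries whose groups differ widely. Chst3 was close to Fcrla (0.473), a gene of the B cell marker list above, and to Tnfrsf13c (0.519), the BAFF receptor of B cells. Fcrla had 0.573, 1.37 and 0.867 CPM in S62A lymphomas, 13.2, 16.6 and 1.61 CPM in T58A lymphomas, 89.4, 111 and 88.3 CPM in S62A splenomegaly and 4.08, 4.08 and 4.89 CPM in controls. Like Chst3, it was low in T58A lymphoma 3 and in all S62A lymphomas and highest in S62A splenomegaly. Clu was closest to Ackr2 (0.446), a chemokine scavenger receptor, then to Lrrk2 (0.522) and Fendrr (0.545). Cplx2 was closest to Osmr (0.236), the oncostatin M receptor, the smallest distance of all 21, and next to Vamp5 (0.334) and P2ry12 (0.357).

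Of the higher genes, Glo1 had the closest profiles, those of Zfp81 (0.442), Tfrc (0.506) and Cyb5a (0.524). Tfrc, the transferrin receptor, had 1320, 1144 and 2573 CPM in S62A lymphomas, 808, 410 and 387 CPM in T58A lymphomas, 74.3, 119 and 115 CPM in S62A splenomegaly and 175, 163 and 144 CPM in controls. It had the same order of groups as Glo1, with no overlap between any 2 of them. Bcar3 was nearest to Zfp960 (0.620), Evc (0.629) and Rnase2a (0.708). Limch1 was nearest to Zfp995 (0.743), Zfp369 (0.746) and Zfp760 (0.753), and Dclk2 to Plag1 (0.789), Psrc1 (0.799) and Celf5 (0.865), the loosest likenesses of the 7. In Zfp995, Zfp760, Plag1, Psrc1 and Celf5, S62A lymphoma 3 was the highest library, as it was in Limch1 and Dclk2. Zfp369 was highest in S62A lymphoma 1, at 11.1 CPM against 10.7 CPM in S62A lymphoma 3. These genes were picked for their like profiles, so nothing is read from this.

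The nearest tested gene on each side of each of the 7 was compared between S62A and T58A lymphomas. None of the 14 overlapped its gene, at gaps of 3.46 to 203 kb, and none passed edgeR's quasi-likelihood test, where 3.15% of all genes passed, so few or no calls among 14 genes are near that share. At an unadjusted p under 0.05 2 were higher and 1 was lower, and DESeq2 called 1 higher. Uchl1, a ubiquitin hydrolase of neurons that lies before Limch1, had the highest value of the 14, a log2 fold change of 1.57 ± 0.68 (edgeR adjusted p = 0.193). Gulo, the neighbour of Clu, had 0 reads in S62A lymphomas and 11 in T58A lymphomas. Each neighbour other than Gulo had a value nearer 0 than the gene it lies beside. The 7 genes were chosen for a large difference of this kind, so nothing is read from this.

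**Figure D4:**
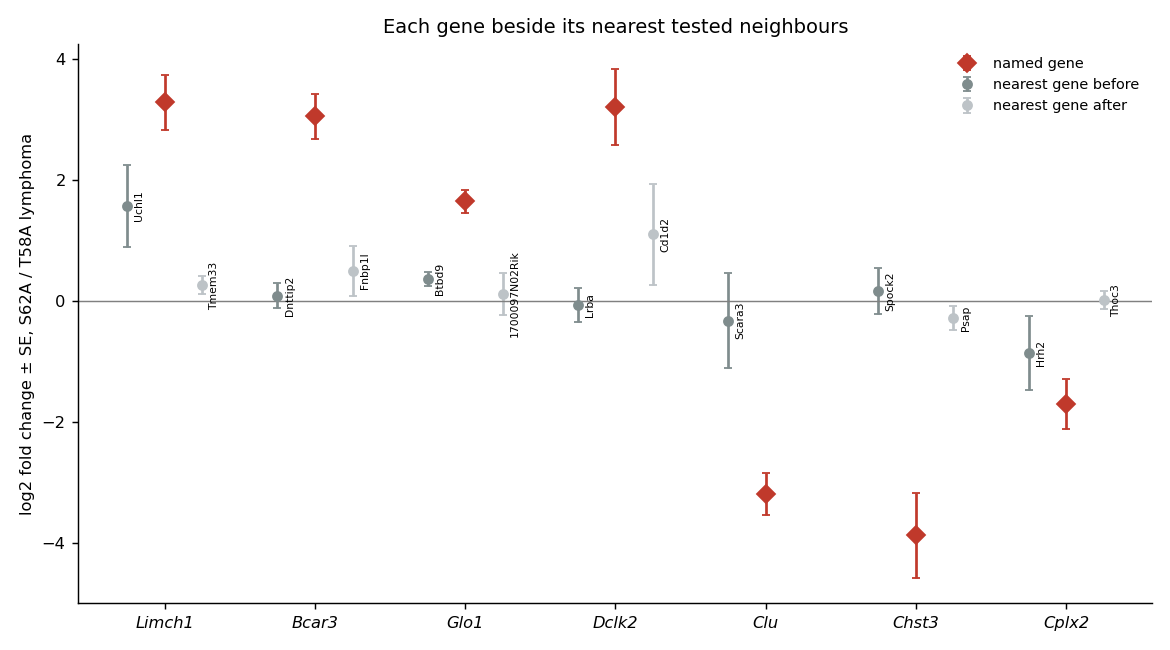
Log2 fold change between S62A and T58A lymphomas (y axis, bars are the SE from edgeR, 3 libraries a group) of each gene (red diamond) and of the nearest tested gene before (dark grey) and after it (light grey). Gulo, after Clu, has 0 reads in S62A lymphomas and is not drawn. The 7 genes, which were chosen on this difference, lie outside the values of their drawn neighbours, and nothing is read from this.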

How the data were processed

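Poly(A) RNA of 12 libraries was sequenced on an Illumina HiSeq after directional library preparation, per the labels' protocols. For each RefSeq transcript the authors deposited raw read counts and FPKM values, which scale reads to transcript length and library. The submitters' processing notes name Bowtie 1.0.0, bcl2fastq 2.20.0.422, DESeq2 and build mm9. Which tool counted reads, with which strand setting and with which rule for multi-mapping reads, is not given in the sources used here. File starts were assumed to count from 0 and are printed counted from 1. Promoter sequences are RefSeq's, of another build, GRCm38.p6.

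The analysis used edgeR 4.0.16 under R 4.3.3: filterByExpr by group (minimum count 10), TMM scaling, and a quasi-likelihood model with group as its term over all 12 libraries, with Benjamini-Hochberg adjustment and a threshold of 0.05. The code was tested on simulated data. Alternatives were other scaling, no filter, other transcript rows, fewer libraries, each library left out, DESeq2 1.42.0 and limma 3.58.1 on log2(FPKM + 0.1) and log2(FPKM + 1). Figures used Python 3.11.15 and matplotlib 3.10.9.

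The 7 genes, gene lists and marker lists were chosen with earlier results of these data known. Named genes were the 7, for each the 3 most similar profiles and the nearest tested gene on each side, per list the genes with the smallest adjusted p between the lymphomas, Myc and neighbours of Glo1. The result of 1 gene that this rule named is left out. Other list genes named in the comparisons with controls were chosen after their values were seen. Groups came from the labels, and replicates were numbered in deposit order. No label says that the libraries of a group are from separate animals. P-values then measure only how far these libraries spread, and this may be technical. This caution holds most for comparisons with controls, where controls 1 and 2 lay much closer to each other than to control 3. Depth ran from 9577373 to 22437969 reads in genes. Intervals cover counting error only.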

Additional observations from a re-analysis of the deposited data

Results flagged for a closer look

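Several of the 7 genes lay on opposite sides of controls in 2 groups, with every library of 1 group above and every library of the other below all 3 controls. Lying apart from controls was common. Of all genes tested 60.3% did so in S62A lymphomas, 60% in T58A lymphomas and 70.5% in S62A splenomegaly. The share of all genes on opposite sides was not counted, so nothing is read from how many of the 7 did so. The differences between the effects of 2 groups against controls, given in log2 units, were not tested here, and the groups share the controls. For S62A lymphomas minus T58A lymphomas the difference was 3.284 for Limch1 and -3.199 for Clu. Controls cancel in it, so these are the differences on which the genes were chosen, and nothing is read from them. For S62A splenomegaly minus S62A lymphomas it was -3.336 for Limch1, -3.747 for Glo1, 5.628 for Clu, 7.674 for Chst3 and 2.942 for Cplx2. For S62A splenomegaly minus T58A lymphomas it was -2.102 for Glo1. Clu, Chst3 and Cplx2 thus had S62A lymphomas below and S62A splenomegaly above controls although both carry the S62A mutant, while Limch1 and Glo1 had the reverse.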

How the results depend on the processing

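Of 47 alternatives for the counts of genes called, 40 stayed within 1.5 times. Between S62A and T58A lymphomas edgeR called 492 genes, 134 higher and 358 lower. With the 6 lymphoma libraries alone it called 0 (2045 at an unadjusted p under 0.05), DESeq2's Wald test called 1755, and leaving out 1 library gave 139 (without T58A lymphoma 2) to 783 (without T58A lymphoma 1), with 267 without S62A lymphoma 2. Scaling by library size alone gave 86 higher and 456 lower. With control 3 as the only control, calls fell to 2218 of 7202 for the mean of both lymphoma groups and to 2994 of 7681 for S62A splenomegaly, and the cause was not tested. Scaling by library size alone moved the median log2 fold change of all genes in S62A splenomegaly against controls to -0.191, against -0.0839. For the 7 genes, 290 of 329 alternatives were counted as unchanged. Against controls this meant the same direction and call. Between S62A and T58A lymphomas no call was made, and it meant the same direction and a log2 shift under the pooled SD of these groups. Chst3 in the mean of both lymphoma groups reversed, without a call, to 0.1207 with log2(FPKM + 1), and leaving out 1 library gave -0.442 to 0.05257 (without T58A lymphoma 3). Between S62A and T58A lymphomas no gene reversed, and both FPKM fits gave smaller folds for all 7. With log2(FPKM + 1) the log2 values were 2.48 for Limch1, -1.08 for Chst3 and -0.46 for Cplx2, and the fold of Dclk2 was 5.25 in place of 9.21. With log2(FPKM + 0.1) the fold of Chst3 was 6.13 in place of 14.7. A pseudocount shrinks the folds of genes low in FPKM. The FPKM fits also used no TMM scaling, and the part of each in the smaller folds was not tested. No paired analysis was possible because the labels give no replicate numbers that groups share. Depth limits Chst3 and Cplx2 in S62A lymphomas, with 7 to 19 reads a library.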
